A study of Mus musculus with 25 samples.

Results

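Whole platelets were compared with platelet releasate on 6 Affymetrix mouse gene arrays, chosen by their source names: 3 of tumour cells cultured with whole platelets and 3 of tumour cells cultured with platelet releasate, of 12 gene arrays and 25 arrays in all. All are of Ep5 (EpRas) cells, a Ras-transformed mouse mammary epithelial line that the labels give with a C57BL/6 background, and all platelets came from wild-type C57BL/6 mice. The platelet group had about 1000 platelets per tumour cell for 24 h. The releasate group had the supernatant of thrombin-treated, centrifuged platelets for 24 h. The pellet group had the resuspended pellet of such a spin for 24 h, and the last group was sub-confluent cells alone. Another 13 arrays, of the mouse exon type, hold cells after 24 h with platelets (5), cells joined with platelets only just before RNA isolation (3, called the lysis mix below) and cells alone (5). They hold no releasate. Arrays are called by the numbers 7, 8 and 9 in their titles.

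Platelets act on tumour cells in different ways: through what they release when activated, and through contact with the platelet bodies themselves. Activated platelets empty alpha granules that hold growth factors, among them TGF-beta, and chemokines such as Pf4 and Ppbp, while the membrane carries adhesion receptors and other bound ligands. TGF-beta signals through Smad proteins and NF-kappaB is a general inflammatory transcription factor. Both are known from work on platelets and carcinoma cells as inducers of epithelial-mesenchymal transition, the loss of epithelial and gain of mesenchymal traits. Whole platelets include the platelet bodies, which the releasate lacks.

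The label of the whole-platelet group names no thrombin, so platelet bodies, thrombin treatment and centrifugation cannot be told apart in platelets against releasate. The dose of releasate or pellet per cell is not given in the sources used here. The labels do not say whether arrays of a group come from separate cultures, so p-values measure the spread between these arrays, which may be technical. Platelet array 9 carries a platelet tag of "none", and the array of cells alone number 8 carries a platelet tag, against their source names. The mean level over the 30 measured genes of a platelet list was 5.94 to 5.97 on the platelet arrays, 5.66 to 5.69 on the releasate arrays, 5.88 to 5.93 on the pellet arrays and 5.69 to 5.73 on the arrays of cells alone, so on this measure both arrays went with their source names.

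The cells carried the markers of their label. The simple-epithelial keratins Krt8 and Krt18 averaged 11.91 and 12.40 on the log2 scale on platelet arrays and 11.80 and 12.44 on releasate arrays, and the surface protein Epcam averaged 12.03 and 11.98, against a median of 5.59 over all probe sets of the 12 arrays. The pan-leukocyte marker Ptprc lay at 4.52 and 4.60, the monocyte gene Lyz2 at 4.63 and 4.56 and the neutrophil gene S100a8 at 5.09 and 5.14 on platelet and releasate arrays, and none of 7 leukocyte markers passed the test. Array medians lay between 5.56 and 5.63, and the correlation of any 2 gene arrays between 0.984 and 0.996.

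A small set of genes separated whole platelets from releasate. With whole platelets 7 genes were higher (Pf4, Cd226, Nt5e, Clec1b, Chst2, Adgra1 and Tnnt2) and 2 were lower (Rhpn2 and Lat2). These are the 9 of 19938 genes, 0.0451%, at an adjusted p under 0.05 in limma, a linear model with moderated variances fitted to all 12 gene arrays, with Benjamini-Hochberg adjustment over all genes. In each direction that is 0.0351% higher and 0.01% lower, and 1320 genes (6.62%) had an unadjusted p under 0.05. The differences lay between 0.48 and 1.83 log2 for the rises and at -0.63 and -1.12 for the falls. The number rests on the arrays used: no gene passed with only the 6 arrays compared (1143 at an unadjusted p under 0.05) or without number 8 in both groups (1233 at an unadjusted p under 0.05). With 1 gene array left out it was 4 without releasate 7 or releasate 8, 5 without platelets 7, pellet 9 or alone 7, and 33 without pellet 7. The number also rests on the model: in limma 98 genes passed with the array number as a replicate block and 42 with array weights.

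**Figure D1:**
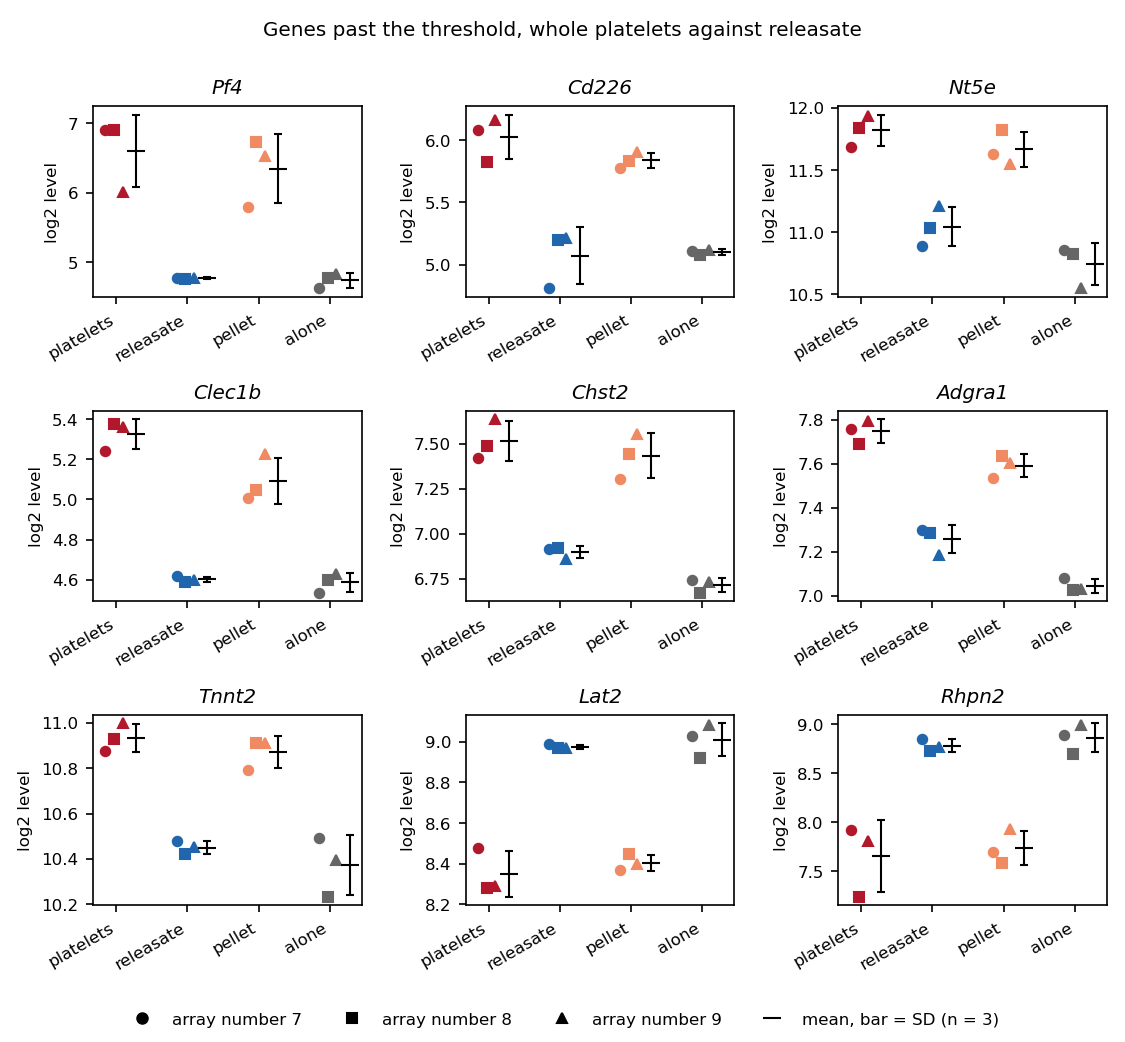
Log2 level of the 9 genes past the threshold on each of the 12 gene arrays (points, with shape for the array number) and group mean with SD (bars, n = 3), in the order whole platelets, releasate, pellet and cells alone. In every panel the platelet points do not overlap the releasate points, and the pellet points do not overlap those of cells alone.

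Of the 9 genes, 3 belong to platelets by their known biology. Pf4, platelet factor 4, is a chemokine of the alpha granule. Its level was 6.90, 6.90 and 6.01 on platelet arrays 7, 8 and 9, against 4.78, 4.76 and 4.78 on the releasate arrays. The 3 releasate values sat together near the level of cells alone (4.63, 4.78 and 4.83), while platelet array 9 was lower than the other platelet arrays. The difference was 1.83 ± 0.25 (SE, log2), with an adjusted p of 0.0471. The releasate level lay below the median of all probe sets (5.59), in the range of the leukocyte markers above, so no fold is given.

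Clec1b encodes CLEC-2, the platelet receptor for podoplanin. It measured 5.24, 5.38 and 5.36 with platelets, against 4.62, 4.59 and 4.60 with releasate. The groups were far apart for their spread, and with an adjusted p of 0.00391 for a difference of 0.72 ± 0.06 Clec1b had the smallest p of all genes. Cd226 encodes DNAM-1, an adhesion receptor of platelets and lymphocytes. It measured 6.08, 5.82 and 6.17 with platelets, against 4.81, 5.20 and 5.21 with releasate. The groups did not overlap, and the difference was 0.95 ± 0.11 (adjusted p = 0.0134). With releasate Clec1b and Cd226 also lay below the median of all probe sets, and Clec1b did so with platelets too.

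The exon arrays show which RNAs platelets bring with them, since in the lysis mix the platelets met the tumour cells only just before RNA was isolated. In the lysis mix against cells alone 9 of 18997 genes (0.0474%) passed the threshold, all higher. Pf4 was higher by 4.90 ± 0.25, Clec1b by 3.04 ± 0.45 and Cd226 by 2.93 ± 0.38 log2 (limma adjusted p = 2.04e-06, 0.0371 and 0.0166). With 1 of the 13 exon arrays left out in turn Pf4 passed in all 13 fits. Cd226 passed in 6 of 13 fits (without alone 4 or any one of the 5 platelet arrays) and Clec1b in 3 (without platelets 1, 3 or 4), with adjusted p-values up to 0.166 and 0.304 (each highest without an array of the lysis mix, number 6 for Cd226 and number 5 for Clec1b), and differences of 2.82 to 3.02 and of 2.90 to 3.11. The other 6 genes did not pass there. Their differences in the lysis mix were 0.65 ± 0.36 for Adgra1, 0.18 ± 0.34 for Nt5e, 0.17 ± 0.41 for Chst2, -0.07 ± 0.18 for Tnnt2, 0.16 ± 0.24 for Rhpn2 and -0.25 ± 0.25 for Lat2, with adjusted p-values from 0.945 to 0.970. In bulk RNA, fewer cells of a type and less RNA per cell cannot be told apart.

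Ppbp, the alpha-granule chemokine known as CXCL7, had the largest difference of any gene without passing the threshold. Its level was 10.25, 10.51 and 10.39 on platelet arrays, against 8.43, 7.18 and 7.90 on releasate arrays. The platelet arrays were alike and all above the releasate arrays, which spread over more than 1 log2. The difference was 2.54 ± 0.42 (5.83-fold, adjusted p = 0.0729). Pellet arrays were at 9.72, 10.23 and 10.11, against 9.17, 7.88 and 9.84 for cells alone, and these groups overlapped. Cells alone were thus well above the array median for this gene, and releasate minus alone was -1.13 ± 0.42 (adjusted p = 1). Platelets minus alone was 1.42 ± 0.42 (limma adjusted p = 0.212). On the exon arrays Ppbp was higher in the lysis mix than in cells alone by 4.21 ± 0.55 (limma adjusted p = 0.0166). With 1 exon array left out in turn it passed there in 6 of 13 fits. Other platelet genes were flat: the integrin subunit Itga2b averaged 4.93 with platelets and 5.04 with releasate, Gp9 of the von Willebrand factor receptor 5.11 and 5.07, and Treml1 5.61 and 5.66. Rgs18, a regulator of G-protein signalling, averaged 5.15 and 4.51 (0.63 ± 0.14, adjusted p = 0.196). Over the 30 measured members of the platelet list, 3 passed, all higher (against 0.0351% of all genes), 17 differences were positive and 13 negative, and the median was 0.05, against -0.01 over all genes. Of these, 7 did not overlap on the higher side (23.3%, against 4.44% of all genes) and 1 on the lower (3.33%, against 6.88%).

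The other 4 rises were of genes whose level in the lysis mix did not pass the test against cells alone. Nt5e encodes CD73, the cell-surface enzyme that makes adenosine from AMP. Its level was 11.69, 11.84 and 11.93 with platelets, against 10.89, 11.04 and 11.21 with releasate. The difference was nearly the same within each array number, 0.79, 0.80 and 0.73, with a mean of 0.77 ± 0.11 (1.71-fold, adjusted p = 0.0476). Chst2, a sulfotransferase that acts on N-acetylglucosamine of glycan chains, measured 7.42, 7.49 and 7.64 with platelets, against 6.92, 6.92 and 6.86 with releasate. Each platelet array was at least 0.50 above the releasate array of its number, and the difference was 0.61 ± 0.07 (adjusted p = 0.0138).

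Adgra1, an adhesion G-protein-coupled receptor, measured 7.76, 7.69 and 7.80 with platelets, against 7.30, 7.29 and 7.19 with releasate. The groups were separate, with a difference of 0.49 ± 0.05 (adjusted p = 0.0116). Tnnt2 encodes troponin T of heart muscle and was abundant in these cells. It measured 10.87, 10.93 and 10.998 with platelets, against 10.48, 10.42 and 10.45 with releasate. The groups were again separate, with a difference of 0.48 ± 0.07 (adjusted p = 0.0476).

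Promoters of these 4 genes are shown because each passed as higher with platelets than with releasate and did not pass in the lysis mix. They are RefSeq sequences of build GRCm38.p6, 250 bases before to 50 after the listed start, on the strand of the gene and 5′ to 3′. Capitals mark matches to 1 of 4 motifs searched on both strands: AP-1 (TGANTCA), NF-kappaB (GGG and TTTCC with 2 bases of any kind between them), TEAD (GGAATG) and Smad (GTCTAGAC).
Adgra1, chr7:139833924-139834223, plus strand: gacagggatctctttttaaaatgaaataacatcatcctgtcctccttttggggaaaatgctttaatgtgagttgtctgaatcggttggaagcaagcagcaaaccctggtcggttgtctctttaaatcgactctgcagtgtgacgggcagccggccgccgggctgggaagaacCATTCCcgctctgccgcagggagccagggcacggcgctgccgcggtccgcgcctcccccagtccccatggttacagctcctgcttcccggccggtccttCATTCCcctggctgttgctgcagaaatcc
Tnnt2, chr1:135836084-135836383, plus strand, the first of 2 listed starts: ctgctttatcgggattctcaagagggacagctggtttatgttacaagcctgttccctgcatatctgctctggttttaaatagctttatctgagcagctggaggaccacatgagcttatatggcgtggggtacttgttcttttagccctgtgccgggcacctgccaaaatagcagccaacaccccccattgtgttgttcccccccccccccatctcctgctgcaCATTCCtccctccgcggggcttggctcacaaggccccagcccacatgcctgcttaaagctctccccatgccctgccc
Nt5e, chr9:88327359-88327658, plus strand: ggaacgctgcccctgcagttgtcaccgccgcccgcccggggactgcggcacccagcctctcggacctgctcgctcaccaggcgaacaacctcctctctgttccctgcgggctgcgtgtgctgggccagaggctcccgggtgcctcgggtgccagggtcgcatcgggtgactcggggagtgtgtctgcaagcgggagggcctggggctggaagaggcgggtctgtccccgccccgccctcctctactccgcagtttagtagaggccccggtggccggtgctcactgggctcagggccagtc
Chst2, chr9:95407221-95407520, minus strand: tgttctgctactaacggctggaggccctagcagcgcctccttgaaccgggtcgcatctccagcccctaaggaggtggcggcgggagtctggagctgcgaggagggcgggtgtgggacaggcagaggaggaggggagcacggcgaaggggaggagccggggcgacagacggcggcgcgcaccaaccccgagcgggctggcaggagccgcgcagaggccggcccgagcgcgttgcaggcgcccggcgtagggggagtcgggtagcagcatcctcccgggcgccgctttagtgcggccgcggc
The TEAD letters occurred in Adgra1 at 2 places, -78 and 21 from the start, and in Tnnt2 at -27, each time as the reverse complement CATTCC. Of 27025 promoters of this length 14.6% hold these letters, so the motif is common. None of the 4 promoters held the AP-1, NF-kappaB or Smad letters, which 7.93%, 1.62% and 0.211% of all promoters hold. A match is a description of letters, and its absence says only that these letters are not in this window.

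The 2 falls were of Lat2 and Rhpn2. Lat2 encodes a membrane adaptor known from lymphocytes and mast cells, and in these cells it was well above the array median. It measured 8.48, 8.28 and 8.29 with platelets, against 8.99, 8.97 and 8.97 with releasate. The releasate values hardly varied, and the difference was -0.63 ± 0.06 (0.648-fold, adjusted p = 0.00836). Rhpn2 measured 7.92, 7.24 and 7.81 with platelets, against 8.85, 8.72 and 8.76 with releasate. Platelet array 8 was the lowest and no values overlapped, with a difference of -1.12 ± 0.16 (0.460-fold, adjusted p = 0.0471).

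Leaving out 1 of the 12 gene arrays in turn, Clec1b and Lat2 passed in each of the 12 fits, with adjusted p-values of at most 0.0449 and 0.0482. Adgra1 was lost without platelets 7 (0.0565), as was Cd226 (0.0708), and Chst2 without platelets 8, releasate 7 or releasate 8 (0.0548, 0.0977 and 0.0750). The rest were close to the threshold. Nt5e passed only without pellet 7, pellet 8, releasate 9 or alone 9, Pf4 only without platelets 9, pellet 7 or pellet 8, Rhpn2 only without platelets 7, platelets 8 or pellet 7, and Tnnt2 only without pellet 7 or alone 8. Their adjusted p-values otherwise lay between 0.0505 and 0.256, the highest without releasate 7.

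Of the 9 genes, 6 lay with releasate near the level of cells alone. Releasate minus alone was 0.03 ± 0.25 for Pf4, 0.01 ± 0.06 for Clec1b, -0.03 ± 0.11 for Cd226, 0.08 ± 0.07 for Tnnt2, -0.03 ± 0.06 for Lat2 and -0.08 ± 0.16 for Rhpn2. It was 0.21 ± 0.05 for Adgra1, 0.18 ± 0.07 for Chst2 and 0.30 ± 0.11 for Nt5e, with an adjusted p of 1 for each of these 9 genes. No gene (0.0%) passed in releasate against alone (563, or 2.82%, at an unadjusted p under 0.05), and none did under array weights or limma-trend. A difference that misses the threshold with 3 arrays a group does not show that releasate had no effect. Platelets minus alone had 133 genes past the threshold (0.667%), 82 higher (0.411%) and 51 lower (0.256%). These comparisons share the releasate or platelet arrays with platelets against releasate, and their values are given side by side only.

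The pellet and the cells alone are arrays that platelets against releasate does not use, apart from the shared estimate of the spread and the shared array numbers. In pellet minus alone 83 of 19938 genes passed (0.416%), 47 higher (0.236%) and 36 lower (0.181%). All 9 genes passed there in the same direction, with adjusted p-values of 0.00408 to 0.0265 and with no overlap between pellet and alone, where 9.37% of all genes lay higher and 6.5% lower without overlap. In a fit of only the 6 pellet and alone arrays, which shares no array, 34 of all 19938 genes passed. Of the 9 genes, 6 passed there, and the adjusted p-values of the 9 ran from 0.0170 to 0.0830. The sizes were near each other: 1.60 log2 for Pf4 in pellet minus alone against 1.83 in platelets minus releasate, 0.92 against 0.77 for Nt5e, 0.72 against 0.61 for Chst2, 0.55 against 0.49 for Adgra1, 0.50 against 0.48 for Tnnt2, -0.60 against -0.63 for Lat2 and -1.12 against -1.12 for Rhpn2. Clec1b (0.50 against 0.72) and Cd226 (0.74 against 0.95) were somewhat smaller in pellet minus alone. A test of whether the 2 differences are unequal, platelets minus releasate minus pellet plus alone, called no gene (0.0%) in limma (562, or 2.82%, at an unadjusted p under 0.05), nor under array weights or limma-trend, which does not show that they are equal. Pellet against releasate, which uses the releasate arrays again, called 1 gene (0.00502%), Lat2, lower (-0.57 ± 0.06, limma adjusted p = 0.042). The others of the 9 genes kept their sign there without passing (limma adjusted p = 0.0664 to 0.115). The rises were 1.57 for Pf4, 0.77 for Cd226, 0.62 for Nt5e, 0.53 for Chst2, 0.49 for Clec1b, 0.42 for Tnnt2 and 0.33 for Adgra1. Rhpn2 was at -1.04.

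**Figure D2:**
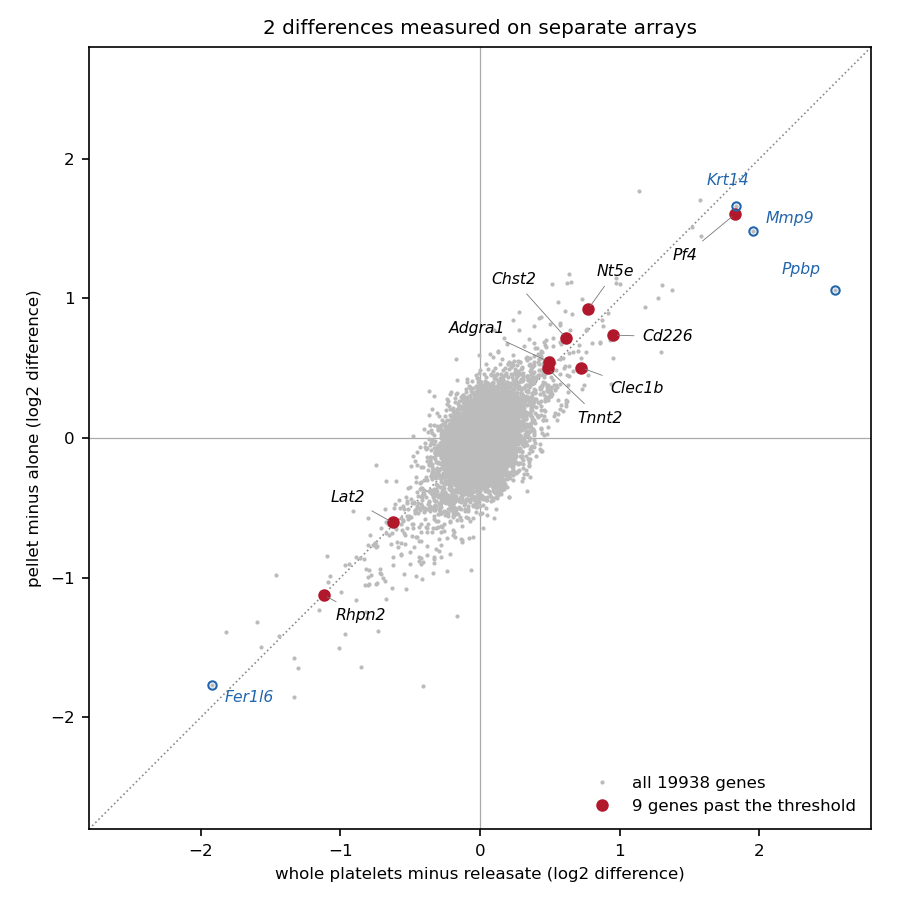
Each gene's log2 difference in whole platelets minus releasate (x axis) against pellet minus alone (y axis), for all 19938 genes (grey), the 9 genes past the threshold in the first (red) and 4 others named in the text (blue rings). The dotted line marks equal differences, and the 9 genes lie in the quadrants of equal sign, from -1.12 for Rhpn2 to 1.83 for Pf4 on the x axis.

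Most of the large differences did not pass the test. At least 1 log2 separated platelets from releasate for 29 genes, 14 higher and 15 lower, of which 2 passed (Pf4 and Rhpn2). All 14 and all 15 had the same sign in pellet minus alone, where the sizes ran from 0.62 to 1.77 for the first and from 0.84 to 1.86 for the second. The share of all genes with the same sign in both differences was not counted.

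Of the 10 largest falls without overlap, Rhpn2 passed and the others did not. Fer1l6, a member of the ferlin membrane proteins, measured 8.24, 6.93 and 7.06 with platelets, against 9.95, 9.04 and 9.0 with releasate (-1.92 ± 0.43, adjusted p = 0.207). Csn3, the milk protein kappa-casein, measured 7.75, 6.20 and 5.76 with platelets, against 8.75, 8.52 and 7.91 with releasate (-1.82 ± 0.57, adjusted p = 0.467). Id2, which blocks DNA binding by helix-loop-helix factors and is a target of BMP signalling, measured 7.96, 6.34 and 6.47 with platelets, against 8.46, 8.61 and 8.49 with releasate (-1.60 ± 0.44, adjusted p = 0.357). In these 3 genes the releasate arrays lay closer together than the platelet arrays, and platelet array 7 was nearest to them.

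The other falls were -1.57 for Aspa (aspartoacylase), -1.46 for Mcpt8 and -1.15 for Gzme (serine proteases known from granules of immune cells), -1.33 for both Klk10 and Klk6 (kallikrein-related proteases) and -1.31 for Cxcl5, a neutrophil-attracting chemokine, with adjusted p-values of 0.198 to 0.514. Platelet array 7 was the platelet array nearest the releasate side in 9 of the 10 genes, and pellet array 7 was the nearest pellet array in 9 of 10. The part of array number 7 in these values was not tested, and the same share over all genes was not counted.

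The genes next after the threshold were Sorbs2, Cavin2, Gnb4 and Rdh10 (adjusted p = 0.0514 each), Vegfc, Cd200, Speer3 and Rnf152 (0.0571 each), C1qtnf1 (0.0576) and Gm11149 (0.0644). Cavin2, a coat protein of caveolae, measured 10.14, 9.95 and 9.61 with platelets, against 11.13, 11.06 and 10.79 with releasate (-1.09 ± 0.16). Vegfc, the growth factor of lymphatic vessels, measured 8.51, 8.93 and 8.51 with platelets, against 7.62, 7.42 and 7.98 with releasate (0.97 ± 0.15). Rdh10, which makes retinal from retinol, measured 11.17, 11.52 and 11.24 with platelets, against 10.59, 10.66 and 10.76 with releasate (0.64 ± 0.10). None of these 3 overlapped between the groups, and the last 2 were near the level of cells alone with releasate (0.08 and -0.10 in releasate minus alone). Sorbs2, an adaptor of the actin cytoskeleton, was at -0.68 ± 0.10.

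The exon arrays, which hold other samples of the same co-culture, give genes chosen without the gene arrays. Genes were taken that passed both in platelets against cells alone (864 of 18997, 4.55%) and, in the same direction, in platelets against the lysis mix (699, 3.68%), which leaves out RNA that platelets bring. Of 241 such genes that were higher, 236 were measured on the gene arrays. With whole platelets 224 of them (94.9%) were above releasate, where 44.5% of all genes were, and the 3 platelet values lay above the 3 releasate values for 125 (53.0%, against 4.44% of all genes). Of 329 such genes that were lower, 323 were measured, 303 (93.8%) were below releasate, where 55.5% of all genes were, and 126 (39.0%, against 6.88%) did not overlap. In each set 1 gene did not overlap in the opposite direction. Past the threshold were 3 of the 236 (Chst2, Nt5e and Tnnt2, 0.0351% of all genes being called higher) and 1 of the 323 (Rhpn2, against 0.01%). Adgra1 and Lat2 were in neither set. On the exon arrays Adgra1 was at 1.22 ± 0.31 in platelets against alone and 0.57 ± 0.36 against the lysis mix (limma adjusted p = 0.0471 and 0.555). Lat2 was at -0.67 ± 0.21 and -0.42 ± 0.25 (0.125 and 0.518).

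The median platelets minus releasate was 0.33 in the higher set and -0.23 in the lower set, against -0.01 over all genes. Pellet minus alone had medians of 0.28 and -0.35, against 0.01. Releasate minus alone had smaller medians of the same signs, 0.08 and -0.11, against 0.01. Of the 29 genes with a difference of at least 1 log2, 12 of the 14 higher ones and 9 of the 15 lower ones were in the exon set of the same direction, and none was in the opposite set. Of all 19938 genes, 236 were in the higher set and 323 in the lower.

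**Figure D3:**
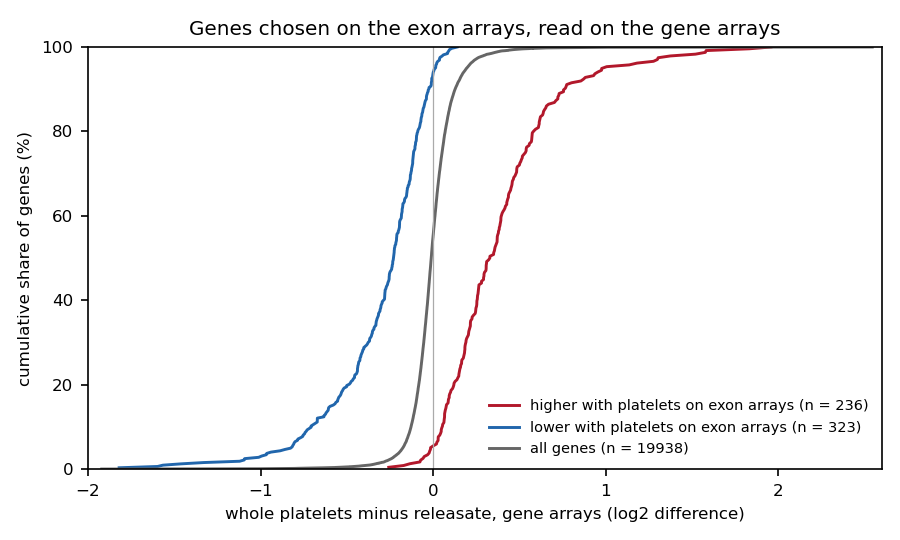
Cumulative share of genes (%, y axis) by the log2 difference of whole platelets minus releasate on the gene arrays (x axis), for the 236 genes higher and the 323 genes lower with platelets on the exon arrays and for all 19938 genes. The higher set lies to the right of all genes with a median of 0.33, and the lower set to the left with a median of -0.23.

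The 10 largest rises of the exon arrays were all above releasate on the gene arrays without overlap (against 4.44% of all genes), and within each of the 3 array numbers, by 0.61 to 1.96 log2. Mmp9, a gelatinase that degrades basement membrane collagen, measured 7.33, 6.80 and 8.39 with platelets, against 5.28, 5.24 and 6.13 with releasate (1.96 ± 0.43, adjusted p = 0.196, and 0.0466 with array weights). Pellet arrays were at 6.05, 7.005 and 7.62, against 5.40, 5.34 and 5.48 for cells alone, so only releasate array 9 stood clearly above cells alone among the releasate arrays. In the lysis mix Mmp9 was at 4.20 ± 0.36 (SD, n = 3), against 9.75 ± 0.48 after 24 h with platelets (n = 5) and 3.92 ± 0.30 in cells alone (n = 5), on the scale of the exon arrays.

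Ccn4, a matricellular protein known as a Wnt target, measured 8.58, 8.94 and 9.20 with platelets, against 6.96, 7.41 and 7.62 with releasate. All 3 numbers gave nearly the same difference, and its mean was 1.58 ± 0.27 (adjusted p = 0.0768). Clu (clusterin, a secreted chaperone) measured 10.95, 10.78 and 11.95 with platelets, against 9.29, 9.66 and 10.00 with releasate (1.58 ± 0.34, adjusted p = 0.196). Ncam1, a neural cell adhesion molecule, measured 9.12, 9.20 and 9.83 with platelets, against 7.56, 8.13 and 7.91 with releasate (1.52 ± 0.36, adjusted p = 0.235). For these 3 genes the gap between the groups was wider than the range within either of them, except for the platelet arrays of Clu, which ranged over more than 1 log2.

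Jag1, a ligand of Notch receptors, measured 8.36, 8.37 and 9.04 with platelets, against 7.14, 7.36 and 7.73 with releasate (1.18 ± 0.25, adjusted p = 0.185). Ctsw, a cathepsin known from cytotoxic lymphocytes, measured 9.81, 9.81 and 10.34 with platelets, against 8.58, 8.74 and 9.23 with releasate (1.14 ± 0.32, adjusted p = 0.367). Ctsw also had the widest gap between releasate and cells alone among these 10 genes, 0.94 ± 0.32 (adjusted p = 1), with 8.11, 7.41 and 8.21 in cells alone. C1qtnf1, a secreted protein of the C1q and TNF family, was higher by 0.70 ± 0.11 and lay in releasate at the level of cells alone (0.02 ± 0.11). Mmp9 was not singled out by array weights, with which 42 genes passed. Ccn4, Clu, Vegfc and C1qtnf1 passed with them too (limma adjusted p = 0.0231, 0.0474, 0.0218 and 0.00738), and Ncam1, Jag1 and Ctsw did not.

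The 10 largest falls of the exon arrays included genes that were dim on the gene arrays: Lrrc26, Them6 and Sgk2 lay below the median of all probe sets on every gene array. On the gene arrays the 10 genes' differences ran from -1.60 to -0.08, with a median of -0.73, 8 of 10 were negative within each array number and 6 of 10 did not overlap (against 6.88% of all genes). Bpifb4 (-1.01 ± 0.28), the membrane transporter gene Atp13a4 (-0.89 ± 0.26), Rom1 of the tetraspanin family (-0.97 ± 0.26), the kinase gene Sgk2 (-0.33 ± 0.09), Id2 and Mcpt8 did not overlap. Aldh3a1, an aldehyde dehydrogenase, measured 5.55, 5.31 and 5.07 with platelets, against 5.81, 6.35 and 5.48 with releasate (-0.57 ± 0.23, adjusted p = 0.701). Lrrc26 and Them6, at -0.08 ± 0.11 and -0.15 ± 0.10, were positive within array number 7, and both turned positive overall without number 8 (0.0337 and 0.0429). Platelet array 7 was the platelet array nearest the releasate side in 10 of these 10 falls and in 6 of the 10 rises, and pellet array 7 the nearest pellet array in 9 of 10 and 9 of 10. Here too the share over all genes was not counted.

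**Figure D4:**
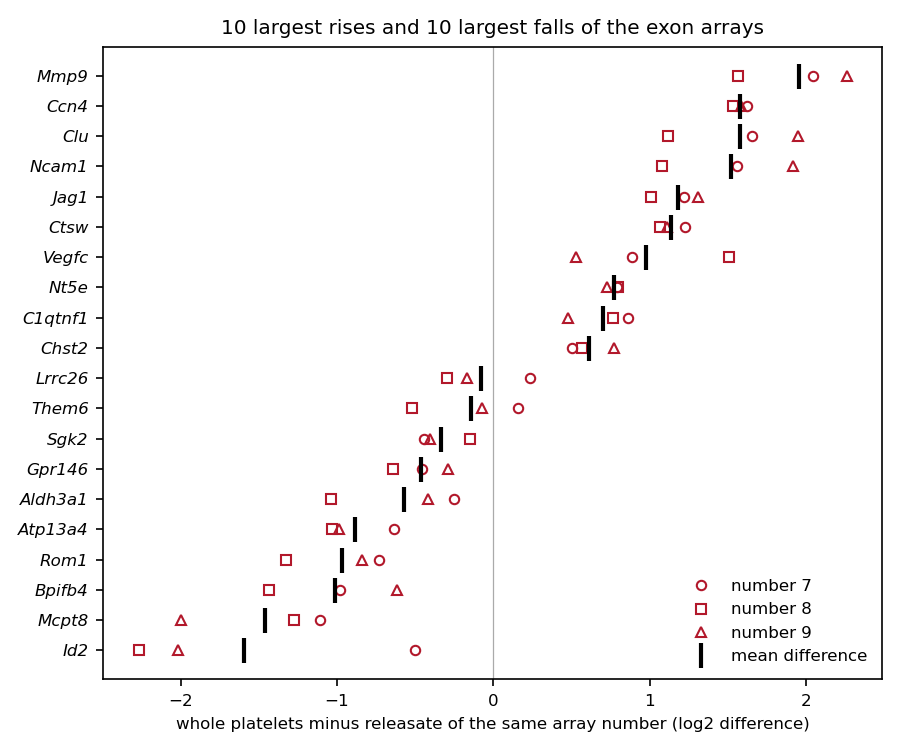
Log2 difference of whole platelets minus releasate within each array number (open symbols) and its mean (black bar) for the 10 largest rises and 10 largest falls of the exon arrays. The 10 rises are positive within each number, with means of 0.61 to 1.96, and among the falls Lrrc26 and Them6 are positive within number 7.

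Across 22 gene lists, 4 members passed: Pf4, Clec1b and Cd226 of the platelet list and Nt5e of the list of YAP and TEAD targets (1 of 20, median -0.06). No other list had a member past the threshold, against 0.0451% of all genes. This call depends on the model. With the array number as a replicate block in limma, 98 of 19938 genes passed, and 14 list members (12 higher, 2 lower). Among these members were Zeb1, Krt14, Mmp9 and Jag1 (adjusted p = 0.0201, 0.0188, 0.0213 and 0.0224). The adjusted p-values of the lists below are from the fit without a block unless a setting is named. The medians of the lists lay between -0.15 (hypoxia and glycolysis) and 0.07 (cholesterol synthesis), against -0.01 over all genes.

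The TGF-beta response list (33 measured) had 20 positive and 13 negative differences and a median of 0.04, with 6 members (18.2%, against 4.44% of all genes) without overlap on the higher side and 2 (6.06%, against 6.88%) on the lower. Its largest difference was that of Id2, given above (-1.60 ± 0.44). Timp3, an inhibitor of matrix metalloproteinases, measured 9.12, 9.31 and 9.93 with platelets, against 8.50, 8.68 and 8.33 with releasate (0.95 ± 0.20, adjusted p = 0.185). Ccn2, a connective tissue growth factor induced by TGF-beta and YAP, measured 9.15, 8.89 and 9.93 with platelets, against 8.36, 8.48 and 8.87 with releasate (0.75 ± 0.29, adjusted p = 0.668). Of the ligands and receptors (25 measured, median 0.06), Tgfb1 itself measured 6.33, 6.26 and 6.20 with platelets, against 6.23, 6.24 and 5.97 with releasate, with overlap (0.12 ± 0.09, adjusted p = 0.918). The type I receptor gene Acvr1b was at 0.38 ± 0.09 (adjusted p = 0.231) and Bmp4 at -0.50 ± 0.22 (adjusted p = 0.732).

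Of the NF-kappaB response list (39 measured, median 0.01), 4 members (10.3%, against 4.44% of all genes) did not overlap on the higher side and 3 (7.69%, against 6.88%) on the lower. Its largest difference was that of Cxcl5, which measured 7.86, 7.99 and 6.81 with platelets, against 9.33, 8.84 and 8.40 with releasate (-1.31 ± 0.43, adjusted p = 0.514). Ccl2, the monocyte chemokine, measured 6.80, 9.51 and 5.74 with platelets, against 6.13, 7.44 and 5.74 with releasate. Its level followed the array number more than the group, and pellet (6.45, 9.24 and 5.67) and cells alone (6.01, 7.36 and 5.31) had the same order. The difference was 0.91 ± 1.05 (adjusted p = 0.957), and it was -0.17 without platelets 8. The interferon response list (23 measured, median 0.04) showed this too in the proteasome subunit Psmb8, which measured 7.13, 7.80 and 6.75 with platelets, against 6.63, 7.49 and 6.13 with releasate (0.48 ± 0.39, adjusted p = 0.934). Psmb9 was at 0.38 ± 0.43 (adjusted p = 0.956).

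Among genes of epithelial and mesenchymal state, the mesenchymal list (28 measured, median 0.04) had 7 members (25.0%, against 4.44% of all genes) without overlap on the higher side and none on the lower. Fn1, the matrix protein fibronectin, measured 12.53, 12.57 and 12.87 with platelets, against 12.05, 12.19 and 12.20 with releasate (0.51 ± 0.15, adjusted p = 0.407). Its receptor subunit Itga5 was at 0.94 ± 0.38 (adjusted p = 0.686) and the matrix protein Tnc at 0.73 ± 0.23 (adjusted p = 0.467). Vim, the intermediate filament of mesenchymal cells, measured 9.90, 10.85 and 9.24 with platelets, against 9.33, 10.53 and 8.64 with releasate, and cells alone ran in the same order of numbers at 8.99, 10.31 and 7.90 (0.50 ± 0.68, adjusted p = 0.959). The transcription factor Zeb1, a repressor of epithelial genes, measured 6.75, 7.88 and 6.34 with platelets, against 5.86, 7.10 and 5.84 with releasate (0.72 ± 0.50, adjusted p = 0.892). Both genes were highest at number 8 in each of the 4 groups, so these SEs include the spread between numbers. Within numbers 7, 8 and 9 platelets minus releasate was 0.89, 0.78 and 0.50 for Zeb1 and 0.57, 0.32 and 0.60 for Vim. With the array number as a replicate block in limma Zeb1 passed (0.72 ± 0.10, adjusted p = 0.0201). Vim passed in no alternative fit.

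Other transcription factors of the transition differed less. Snai1 was at 0.26 ± 0.13 (adjusted p = 0.826) and Zeb2 at 0.31 ± 0.24 (adjusted p = 0.928), and of 17 such genes the median was 0.02. On the epithelial side the adhesion protein Cdh1, E-cadherin, measured 11.54, 11.32 and 11.70 with platelets, against 11.44, 11.46 and 11.49 with releasate, with overlap (0.05 ± 0.13, adjusted p = 0.988), and it turned to -0.0355 without platelets 9. Krt14, the keratin of basal epithelial cells, measured 9.09, 9.50 and 10.26 with platelets, against 7.26, 7.96 and 8.15 with releasate (1.83 ± 0.43, adjusted p = 0.221), and pellet arrays were at 7.97, 9.69 and 9.54, against 7.19, 7.63 and 7.40 in cells alone. Krt14 passed without pellet 7 (adjusted p = 0.0452). Over the 38 measured genes of epithelial junctions and keratins the median was -0.01, with 18 positive and 20 negative.

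The remaining lists had no member past the threshold in the fit without a block. In hypoxia and glycolysis 19 of 24 differences were negative, with Adm at -0.89 ± 0.46 and Egln3 at -0.64 ± 0.41 (adjusted p = 0.826 and 0.878), and in oxidative stress and detoxification 19 of 22, with Gstm1 at -0.57 ± 0.26 (adjusted p = 0.755), where 11066 of all 19938 genes were negative. In thrombin and coagulation (14 measured, median -0.04) Serpinb2, an inhibitor of plasminogen activators, measured 6.94, 6.52 and 7.04 with platelets, against 8.38, 6.82 and 8.53 with releasate (-1.07 ± 0.57, adjusted p = 0.828), and Procr, the endothelial protein C receptor, was at -0.48 ± 0.21 (adjusted p = 0.747). In growth factor and ERK response (28 measured, median -0.03) Ereg, a ligand of the EGF receptor, measured 8.37, 8.63 and 8.47 with platelets, against 9.36, 8.99 and 9.58 with releasate (-0.82 ± 0.26, adjusted p = 0.475), and Fosl1 was at -0.44 ± 0.20 (adjusted p = 0.755).

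Matrix proteolysis (32 measured, median 0.03) had 5 members without overlap on each side (15.6% each, against 4.44% of all genes higher and 6.88% lower), with Mmp9 and Ctsw the largest. Among the Notch genes (19 measured, median -0.01) Jag1 stood above the rest, and Dll1 was at -0.23 ± 0.10 (adjusted p = 0.740). Proliferation (29 measured, median -0.04) had Tk1 at -0.18 ± 0.25 and Mcm6 at 0.13 ± 0.12, cholesterol synthesis (17 measured) Hmgcs1 at 0.24 ± 0.10 and Mvd at 0.15 ± 0.17, and amino acid stress (23 measured, median 0.02) Slc7a11 at -0.48 ± 0.17 and Phgdh at -0.28 ± 0.26. In this group Tk1 and Phgdh turned positive without number 8 (0.0589 and 0.14), and Mvd turned to -0.0476 without platelets 9. In the mammary secretory list (16 measured, median -0.06) Csn3 and Xdh (-0.44 ± 0.25) were the largest.

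Markers of other blood cells did not pass in the fit without a block. With the array number as a replicate block in limma Ly6g did, lower with platelets (adjusted p = 0.0353). Of the leukocyte list (31 measured, median -0.04, 10 positive and 21 negative) Ly6g was at -0.80 ± 0.19 (adjusted p = 0.221) and Cd14, which epithelial cells can also express, at 0.37 ± 0.12 (adjusted p = 0.514). The summed list had array means of 4.95 to 4.98 with platelets and 4.98 to 5.02 with releasate. Of the erythroid list (13 measured, median -0.05) Car2 was at -0.25 ± 0.14 and Slc25a37 at -0.19 ± 0.08 (adjusted p = 0.845 and 0.712), and its array means were 6.33 to 6.38 with platelets and 6.39 to 6.46 with releasate.

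**Figure D5:**
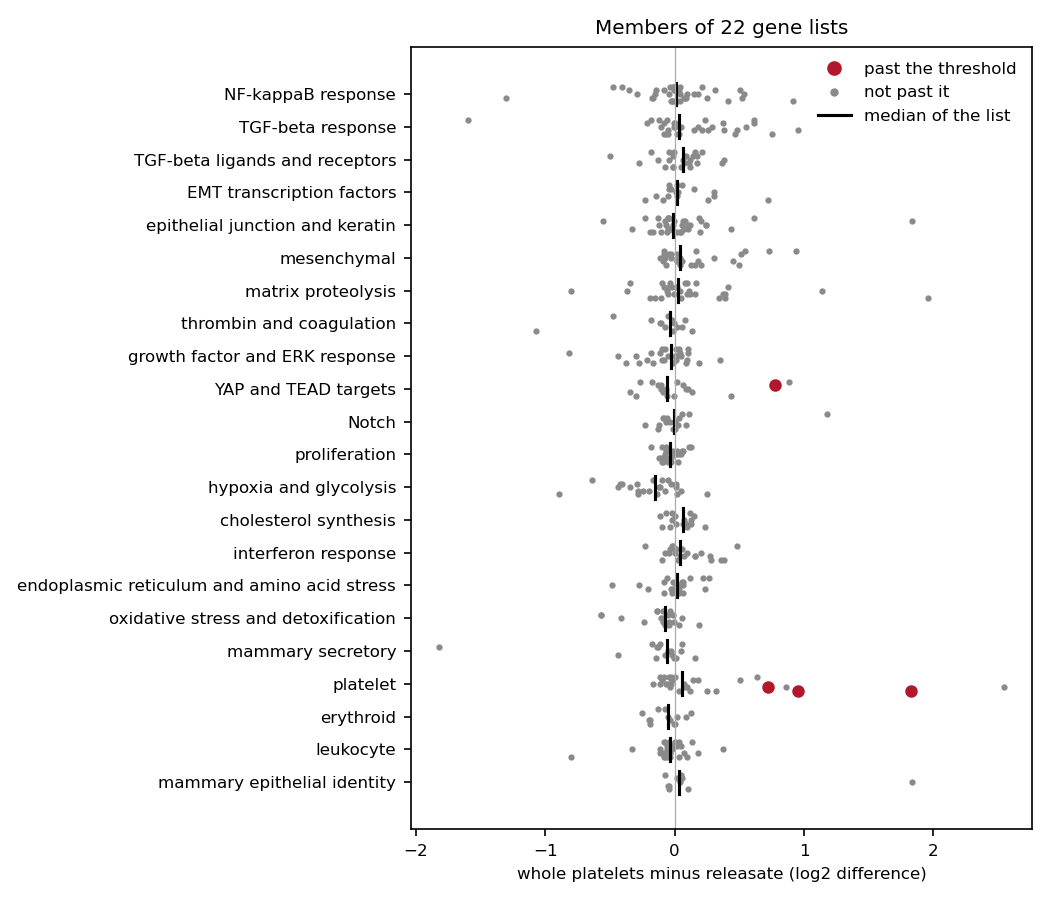
Log2 difference of whole platelets minus releasate (x axis) for each measured member of 22 gene lists (points), with members past the threshold in red and the median of each list as a black bar. The medians lie between -0.15 and 0.07, and 4 members, 3 of the platelet list and 1 of the YAP and TEAD targets, are past the threshold.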

How the data were processed

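The deposited values are log2 probe set levels made by the authors with RMA in Partek 6.5 for the gene arrays and Partek 6.4 for the exon arrays, per the submitters' processing notes. Options of the background correction and the genome build are not given in the sources used here. Each array type was normalized on its own and is tested on its own. Of 35556 gene-array probe sets, 21789 have 1 gene symbol in the platform annotation, 1621 several and 12146 none. Each gene is the 1-symbol probe set with the highest mean, which gave 19938 genes (18997 on the exon arrays). Groups follow the source names.

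Differences were fitted with limma 3.58.1 in R 4.3.3 (lmFit and eBayes, all groups of a table in 1 fit, no covariate), with Benjamini-Hochberg adjustment over all genes and a threshold of 0.05. Arrays carry no read depth, and their number (3 a group) limits the precision. Groups share the title numbers 7, 8 and 9.

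Named genes were the genes called; where fewer than 5 were called in a direction, the 10 largest in it without overlap; up to 4 called members of each list, or else the 2 with the largest difference; and a fixed set of genes (Pf4, Ppbp, Mmp9, Ccl2, Ccn2, Snai1, Cdh1, Vim, Fn1 and Tgfb1). The 10 genes next after the threshold, the 10 largest rises and falls of the exon arrays and the genes compared with the lysis mix were added after values were seen, as was the choice of the exon sets. The genes compared and the lists were chosen with earlier results of these data known. Alternatives are given in the closing section.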

Additional observations from a re-analysis of the deposited data

Results flagged for a closer look

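On the exon arrays Ncam1 measured 7.23 on the fourth array of cells with platelets, against 7.79 to 7.99 on the other arrays of that group, and was marked as a sample far from the others of its group. It was 1 of 56 groups tested, and chance marks about 1 in 20.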

How the results depend on the processing

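The count of 9 genes in whole platelets against releasate became 42 with array weights, 19 with limma-trend, 5 with equal array medians, 0 with only the 6 arrays compared, 0 without number 8 in both groups, and 4 to 33 with 1 array left out. The 83 genes of pellet against alone became 501 with array weights, 51 with the run of title serials as a block, 43 without number 8, 41 without the array of cells alone that has a platelet tag, 34 with only the 6 arrays compared, and 8 (without alone 9) to 133 (without pellet 7). The 133 of platelets against alone became 464 with array weights, 75 without that tagged array, 26 without number 8, and 21 (without alone 9) to 246 (without pellet 7). The 1 gene of pellet against releasate became 37 with array weights, 13 with limma-trend, 0 without the tagged array, dim genes or number 8, with equal medians or with the serial block, and 0 to 6 with 1 array left out. The 4 list members past the threshold became 7 with array weights, 2 with equal medians or without dim genes, 0 with only the 6 arrays or without number 8, and 1 to 5 with 1 array left out. Releasate against alone and the departure from additivity stayed at 0 in every alternative run. On the exon arrays the lysis mix gave 1 to 14 genes, platelets against alone 632 to 888 and platelets against the lysis mix 397 to 798 with 1 array left out. Differences that changed sign, none past the threshold, were Lrrc26 (0.0239 with array weights, 0.0337 without number 8), Phgdh (0.14), Them6 (0.0429) and Tk1 (0.0589) without number 8, Ccl2 (-0.17 without platelets 8 to 1.72 without platelets 9), Cdh1 (-0.0355 without platelets 9 to 0.15 without platelets 8) and Mvd (-0.0476 without platelets 9 to 0.30 without platelets 8). With the array number as a replicate block, platelets against releasate gave 98 genes (51 higher, 47 lower), among them all 9, with 14 list members (12 higher, 2 lower), pellet against alone 359, platelets against alone 454 and pellet against releasate 44. Of the genes named above, 25 passed with the block and not without it, among them Zeb1 (adjusted p = 0.0201), Krt14 (0.0188), Mmp9 (0.0213) and Jag1 (0.0224). The deviations of same-numbered platelet and releasate arrays from their group means correlated at 0.30, 0.07 and 0.11, and each of the 3 arrays of either group correlated best with its own number, a hint from the data and not from the labels. Platelets 8 correlated nearly as well with releasate 9 (0.0683) as with releasate 8 (0.0698). Same-numbered pellet and alone arrays correlated at -0.04, 0.15 and 0.34, and pellet 7 correlated better with alone 8 (0.09). The cause of these shifts was not tested, and 3 arrays a group limit what can be called.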
